A study of Mus musculus with 12 samples.

Results

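The effect of FK228 was measured by setting the 3 FK228 libraries of AML12 cells against the 3 control libraries, for every gene with enough counts to be tested. Of 19037 genes in the deposited table, 13346 passed the count filter and are the genes described here. No value of the comparison itself was used to choose them. AML12 is a hepatocyte line made from a mouse that carried a human TGF-alpha transgene. The series holds 12 libraries of this line, 3 in each of 4 groups: control, FK228, overexpression of YF mutants of histone deacetylases (HDACs) of class I, and FK228 together with YF. The sample titles call the inhibitor HDI, and the series text names it FK228. A GFP code, which is not explained, opens the descriptions of the samples without YF but not of those with YF. The dose, the length of treatment and any vehicle are not given in the sources used, and whether each library of a group had its own culture is not stated. If it had not, the p-values measure technical spread alone.

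FK228, also called romidepsin, is a cyclic peptide made by a bacterium. Inside cells its disulfide bond is reduced, and the freed thiol binds the zinc ion in the active site of class I HDACs. These enzymes take acetyl groups off histones and other proteins within corepressor complexes, and their inhibition raises histone acetylation. HDAC inhibitors are known to stop proliferation and to bring up genes that are silent in the tissue studied.

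Total estimated counts lay between 23664436 and 26122987 in the 12 libraries. The 3 control libraries had a count in 14970 to 15007 genes and the 3 FK228 libraries in 15689 to 15895 genes, and these ranges did not overlap. FK228 replicates 1 and 3 differed most among replicate pairs, with a mean chi-square per gene of 21.6, against 7.58 to 15.2 for control pairs. Albumin mRNA, the most abundant mRNA of adult hepatocytes, had 1 count in each control library. Of 15 hepatocyte markers 11 were tested, with 7 lower and 2 higher, and their summed level was 647 to 720 CPM in control and 279 to 348 CPM with FK228. Most of this sum came from 2 genes: the regulator Hnf4a stood at 177 and 50.6 CPM in control and with FK228 and the lipoprotein gene Apob at 429 and 236 CPM. The enzyme genes Cyp2e1, Cyp3a11 and Pck1 had 0 to 2 counts in each of the 6 libraries, and Cps1, Asgr1, Tat, Fgb and Serpina1a had control means below 1 CPM. The 2 higher markers were Cps1, from 0.0777 to 0.844 CPM, and Asgr1, from 0.155 to 0.980 CPM. CPM are counts scaled to a common library size by TMM. Because CPM are relative to the library, a change in total RNA per cell cannot be read from them, and fewer cells of a kind cannot be told apart from less RNA per cell.

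Of the 13346 genes, 9181 (68.8%) passed the test at an adjusted p of 0.05. Of these, 4437 (33.2%) were higher and 4744 (35.5%) lower with FK228. The counts of called members of all gene lists are to be read against these shares. The tool was edgeR's quasi-likelihood test with Benjamini-Hochberg adjustment over all 13346 genes, and it gives every adjusted p below. Over all tested genes large changes leaned upward: 1475 genes (11.1%) were called at least 2-fold higher and 1032 (7.73%) at least 2-fold lower, and 681 (5.1%) and 287 (2.15%) at least 4-fold. The lean lay in rare mRNAs. Of 5 equal groups of genes by mean CPM, 43.6% of the lowest (median 0.851 CPM) were called higher and 15.3% lower. In the next to highest group (median 53.8 CPM) these shares were 29.7% and 44.8%, and in the highest 36.3% and 35.7%. A gene near 0 in control was tested only where another group had counts, so part of the upward lean at low levels is set by the filter. Where only genes with 5 CPM in at least 3 libraries were tested, 633 genes were called at least 2-fold higher in place of 1475, and 718 at least 2-fold lower in place of 1032, so the lean turned downward.

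**Figure D1:**
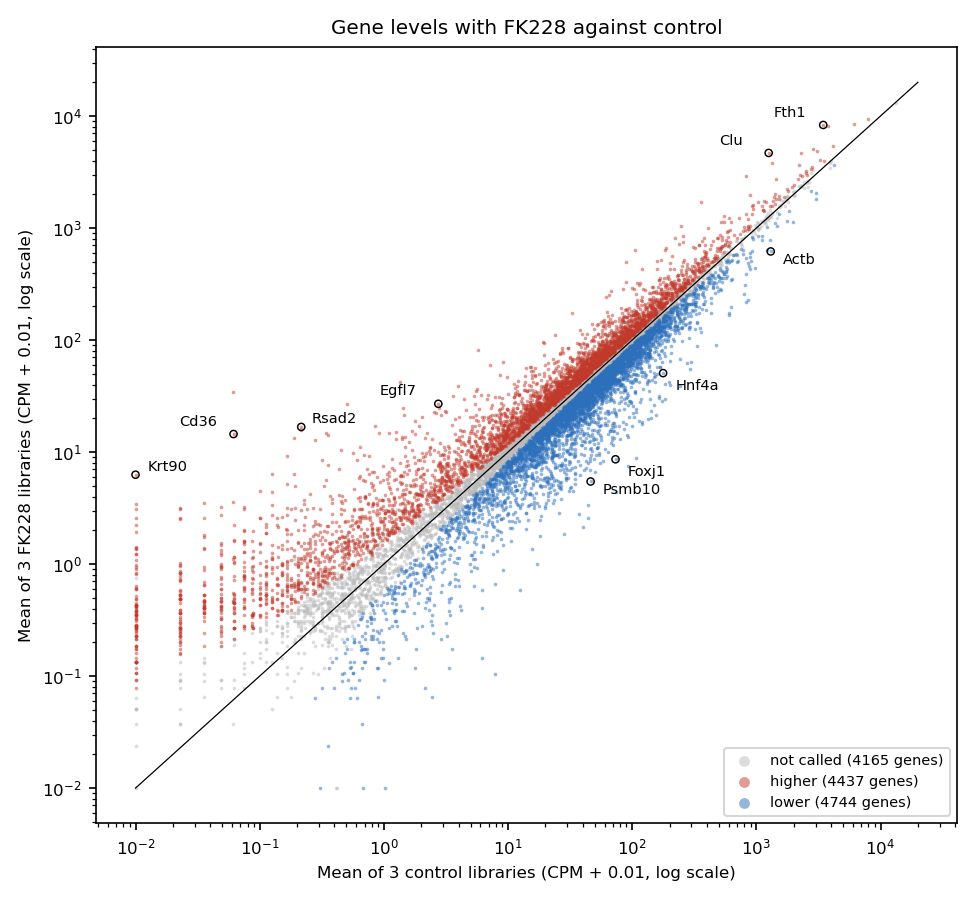
Mean level of each tested gene in 3 control libraries (horizontal axis) and 3 FK228 libraries (vertical axis), in CPM plus 0.01 on log scales, with the line of equal level. The 4437 genes called higher (red) spread widest at the left, where control levels are low, and the 4744 called lower (blue) lie below the line mostly between 1 and 1000 CPM.

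A large part of the mRNA pool was redistributed. Genes called higher took 32.3 ± 0.281% of all counts in control (mean ± SD, n = 3 libraries) and 45.2 ± 0.134% with FK228. Genes called lower took 35.4 ± 0.300% and 23.4 ± 0.520%. The genes changed at least 4-fold held little of the pool. Those higher held 0.131 ± 0.00228% in control and 0.701 ± 0.0167% with FK228, and those lower held 1.06 ± 0.0326% and 0.188 ± 0.00227%. These shares describe the calls and are no test of them.

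Of the 12 largest gains in CPM, 11 are described. Gains and losses were ranked only among called genes whose groups did not overlap, so separate groups are given by the choice. Fth1, the heavy chain of the iron store ferritin, stood at 3397, 3487 and 3486 CPM in the control libraries and 8675, 8069.5 and 8212 CPM with FK228. The log2 fold change was 1.27 ± 0.07 (adjusted p = 9.18e-13). In TPM, which correct for transcript length and allow levels of different genes to be compared, Fth1 mRNA stood at 5271 ± 129 in control and 11829 ± 719 with FK228, and Ftl1, the light chain, at 9057 ± 377 and 11595 ± 568. Heavy chain mRNA was thus below light chain mRNA in control, while with FK228 the 2 levels differed by less than their SD.

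Clu, a secreted chaperone, stood at 1129.6, 1391 and 1250.3 CPM in the control libraries and 4679.6, 4761 and 4602 CPM with FK228 (1.90 ± 0.08, adjusted p = 3.05e-14). Gstp1, a glutathione transferase, stood at 802, 815 and 846 CPM in the control libraries and 3158, 2798 and 2805 CPM with FK228 (1.83 ± 0.08), and its reads may be shared with close copies. Prdx1, a peroxidase, rose from 1339 to 3819.8 CPM and Tpt1, a growth-related protein, from 3755 to 8143 CPM. The glycolytic enzymes Aldoa and Pkm, the elongation factor Eef2, the iron-siderophore binder Lcn2 and Ftl1 rose by log2 fold changes of 1.05, 0.73, 0.67, 0.84 and 0.46. Gapdh, often used as a reference gene, rose from 7949 ± 931 to 9402 ± 407 CPM (0.24 ± 0.08, adjusted p = 0.0112), which did not pass without control replicate 1 (0.17, adjusted p = 0.0766).

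The 12 largest losses in CPM lay in genes of several kinds. Igfbp4, which binds insulin-like growth factors outside the cell, stood at 768, 886 and 829.5 CPM in the control libraries and 203, 223 and 224 CPM with FK228 (-1.93 ± 0.08, adjusted p = 9.90e-15). Habp2, a plasma protease, stood at 829, 919.5 and 841 CPM in the control libraries and 207, 233 and 249.6 CPM with FK228 (-1.91 ± 0.08). Actb, cytoplasmic beta actin and another common reference gene, stood at 1039.8, 1285 and 1592 CPM in the control libraries and 607, 648 and 599 CPM with FK228 (-1.08 ± 0.11). The choice of these genes required groups that do not overlap, and the control values of Actb were widely spread. Tagln2 and Tpm1, which bind actin filaments, had log2 fold changes of -1.63 ± 0.07 and -0.92 ± 0.06, and the tubulin gene Tuba1b -1.15 ± 0.07. Ptms and Ptma, the acidic proteins parathymosin and prothymosin alpha, had -1.38 ± 0.11 and -0.35 ± 0.07. The prolyl isomerase gene Ppia, Pea15a, Ly6e and Tmem176b lay between -0.81 and -0.55. The 12 genes held 1.92 ± 0.0723% of counts in control and 1.06 ± 0.0104% with FK228.

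**Figure D2:**
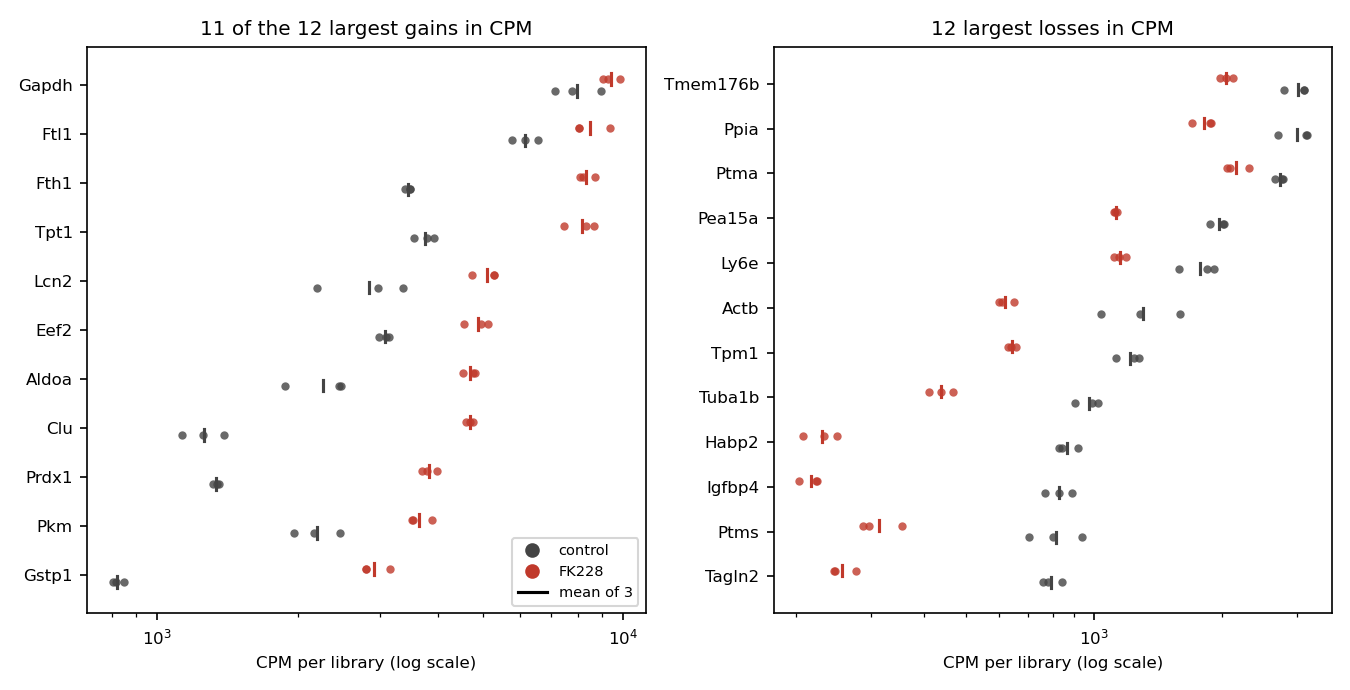
CPM per library (log scale) of 11 genes among the 12 largest gains and of the 12 with the largest loss in mean CPM, with 3 control (grey) and 3 FK228 (red) points per gene and a bar at each mean. Points of the 2 groups do not overlap in any row, which the choice of these genes required, and Clu, Gstp1, Igfbp4 and Habp2 show the widest gaps.

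Genes that were nearly silent in control became countable. Among 253 tested genes with at most 3 counts summed over the control libraries, 222 were called higher, and 88 of these had no count in control. This direction is fixed by the filter, since such genes were tested only for counts elsewhere. Of the 222, 219 are protein coding and 30 reached a mean of 1 CPM with FK228. Where control had 0 counts, the fold below is a bound against 3 counts over the 3 control libraries. Krt90, a keratin gene, stood at 0, 0 and 0 CPM in the control libraries and 5.47, 6.64 and 6.7 CPM with FK228, at least 162-fold higher. Gng8, a G protein gamma subunit, was at least 89.4-fold higher. H2-Ab1, the beta chain of an MHC class II molecule, was at least 79.5-fold higher.

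The other genes of this kind that were named by level had 1 to 3 control counts. Oas2, an antiviral enzyme that senses double-stranded RNA, rose from 0.013 to 2.56 CPM, a count ratio of 198 (95% interval 35.2 to 7879.6). Scn3a, a voltage-gated sodium channel of neurons, rose from 0.0259 to 2.57 CPM, and Akr1c18, an enzyme that inactivates progesterone, from 0.0387 to 2.73 CPM. Slc2a6 of the glucose transporter family, the actin-binding Ablim3, Jakmip2 and the phosphatase gene Ppm1j reached between 3.12 and 3.47 CPM. The reads carry no molecular identifiers, so the interval is one of counting error alone.

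The converse was rare. Among 19 tested genes with at most 3 counts over the FK228 libraries, 5 were called lower. Elovl2, which elongates polyunsaturated fatty acids, stood at 0.93, 1.39 and 0.739 CPM in the control libraries and 0, 0 and 0 CPM with FK228, at least 24.9-fold lower against the same bound (adjusted p = 1.11e-06). Foxs1, a forkhead factor, stood at 0.658, 0.771 and 0.544 CPM in control and 0.0408, 0.0405 and 0 CPM with FK228 (adjusted p = 9.63e-06). Angpt1, a ligand of the TIE2 receptor, Hsd3b4, a steroid enzyme with close copies, and Fam205a3 had control means of 0.348, 0.670 and 0.297 CPM. Their adjusted p values were 0.00162, 0.0334 and 0.00306. The call of Hsd3b4 ended when any of the 6 libraries was left out (adjusted p from 0.0542 to 0.0911).

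Genes of cell division fell together. A cell divides by copying its DNA in S phase and parting the copies in mitosis, under cyclin-dependent kinases (CDKs) that cyclins switch on. All 45 tested mitosis genes were lower and 0 higher. Their median log2 fold change was -2.33, against -0.02 over all genes, and 43 fell at least 2-fold. Their summed level went from 3807 to 4317 CPM across the control libraries to 941 to 988 CPM across the FK228 libraries. All 45 tested DNA replication genes were lower as well, with a median of -1.46, and 36 fell at least 2-fold. Of 15 cyclins and their kinases, 13 were lower and 1 higher (median -1.13).

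The promoters of several such genes are shown with known promoter elements marked. How often these elements occurred differed between the mitosis and replication lists. CCAAT boxes are bound by NF-Y, the cell cycle genes homology region TTTGAA by the MuvB complexes, and TTTGGCGC or TTTCGCGC is a form of the E2F site. In the stretches below, capitals mark all of these words on either strand (RefSeq, GRCm38.p6, 5′ to 3′ in the direction of the gene).
Ccnb2: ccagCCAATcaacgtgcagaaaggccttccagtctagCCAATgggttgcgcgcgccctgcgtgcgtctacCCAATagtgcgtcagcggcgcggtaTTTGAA
Cdc20: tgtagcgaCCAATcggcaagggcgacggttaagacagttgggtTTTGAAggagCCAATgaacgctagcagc
Mcm5: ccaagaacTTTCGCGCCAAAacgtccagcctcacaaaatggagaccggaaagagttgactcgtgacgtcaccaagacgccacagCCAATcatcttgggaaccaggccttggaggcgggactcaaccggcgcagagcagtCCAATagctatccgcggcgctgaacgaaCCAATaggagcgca

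The Ccnb2 stretch is chr9:70421545-70421645 on the minus strand, the Cdc20 stretch chr4:118437334-118437404 on the minus strand, and the Mcm5 stretch chr8:75109348-75109528 on the plus strand. The 3 genes were picked after their values were known. In Mcm5 the capitals at the left hold TTTCGCGC on 1 strand and, overlapping it, TTTGGCGC on the other. Windows of 300 bases, 250 before and 50 after the start, were found for 10651 of the 13346 tested genes. TTTGAA on either strand was in 12.5% of them, in 68.4% of 38 mitosis promoters and in 17.1% of 35 replication promoters. CCAAT was in 39.7% of all, 76.3% of mitosis and 60.0% of replication promoters. The E2F-like words were in 1.5% of all, 5.26% of mitosis and 25.7% of replication promoters.

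Among genes called at least 4-fold lower, TTTGAA was in 91 of 222 promoters, 41.0%. With the members of the cell cycle lists left out it was in 68 of 185, 36.8%. Those lists do not hold every gene of cell division, and the genes left were not checked for others. Among genes called at least 4-fold higher it was in 13.5% of 504. GGGCGG, the core of a GC box, was in 62.0% of all promoters, 46.8% of those at least 4-fold lower and 42.5% of those at least 4-fold higher. Both groups also had a lower median GC content, 55.3% and 55.0%, than all promoters, 60.3%. A match to letters is a description of the window and shows neither binding nor a cause.

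Ccnb2, a B-type cyclin that drives entry into mitosis, stood at 118, 119.8 and 122 CPM in the control libraries and 18.3, 19.5 and 18 CPM with FK228 (-2.69 ± 0.08, adjusted p = 1.21e-16). Cdc20, an activator of the ubiquitin ligase that ends mitosis, stood at 53.4, 51.9 and 58.7 CPM in the control libraries and 8.28, 8.38 and 7.07 CPM with FK228 (-2.79 ± 0.11), and Kif2c, a kinesin that takes microtubules apart, at 48.5, 42.8 and 46.1 CPM in the control libraries and 6.77, 6.43 and 7.32 CPM with FK228 (-2.74 ± 0.10). All FK228 values were far below all control values for these 3 genes. Here and below, most genes named in a list were chosen for a large change, which favours separate groups. The share of all tested genes with separate groups is not given here. Nuf2, which ties kinetochores to microtubules, and the S and G2 phase cyclin Ccna2 fell from 58.2 to 8.39 CPM and from 142 to 23.3 CPM. Mcm5, a subunit of the replicative helicase, stood at 82.4, 58.9 and 70.5 CPM in the control libraries and 15.5, 13.8 and 16.5 CPM with FK228 (-2.21 ± 0.12). Mcm10 and Cdc6, which help load and start that helicase, fell by -2.11 and -2.02 on the log2 scale. Ccne1, the G1/S cyclin, did not pass the test (10.8 and 10.5 CPM, adjusted p = 0.755).

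Regulators upstream of these genes moved both ways. Among 19 tested E2F, pocket protein and MuvB genes 12 were lower and 3 higher (median -0.67). Foxm1, a transcription factor of G2 phase genes, stood at 109.7, 86.2 and 101 CPM in the control libraries and 16.2, 16.4 and 18.2 CPM with FK228 (-2.55 ± 0.09, adjusted p = 4.47e-15). Mybl2, which joins the MuvB core in dividing cells, fell from 19.6 to 5.86 CPM. Lin9, a subunit of that core, fell from 23.1 to 5.88 CPM. The atypical E2F genes E2f7 and E2f8 fell from 10.3 to 2.09 CPM and from 49.6 to 13.2 CPM. Rb1, the pocket protein that holds back E2F, stood at 33.9, 31.9 and 32.7 CPM in the control libraries and 64.3, 68.8 and 70.2 CPM with FK228 and rose by 1.04 ± 0.06 (adjusted p = 2.52e-12). Its relative Rbl1 had a log2 fold change of -1.34 ± 0.12 and Rbl2 of -0.06 ± 0.07, which did not pass (adjusted p = 0.458).

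CDK inhibitors, the brakes on these kinases, split: of 6 tested, 3 were higher and 2 lower. Cdkn2a, whose locus encodes p16 and ARF, stood at 59.7, 68.4 and 67.5 CPM in the control libraries and 158, 143 and 134 CPM with FK228 (1.15 ± 0.09, adjusted p = 8.94e-10). Cdkn2b, which encodes p15, stood at 46.8, 52.4 and 49.3 CPM in the control libraries and 103, 95.8 and 94.8 CPM with FK228 (0.98 ± 0.07). Both genes were higher in every FK228 library than in any control library, but the share of all tested genes that separate in this way is not given here. Cdkn1a, which encodes p21 and is often named as an HDAC inhibitor target, went from 265 ± 5.49 to 295 ± 8.38 CPM (0.15 ± 0.06, adjusted p = 0.0196). That call ended without FK228 replicate 3 (0.13, adjusted p = 0.0654) and without control replicate 1 (0.13, adjusted p = 0.0573). Cdkn1b, which encodes p27, and Cdkn2c fell by -0.51 and -0.41 on the log2 scale.

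**Figure D3:**
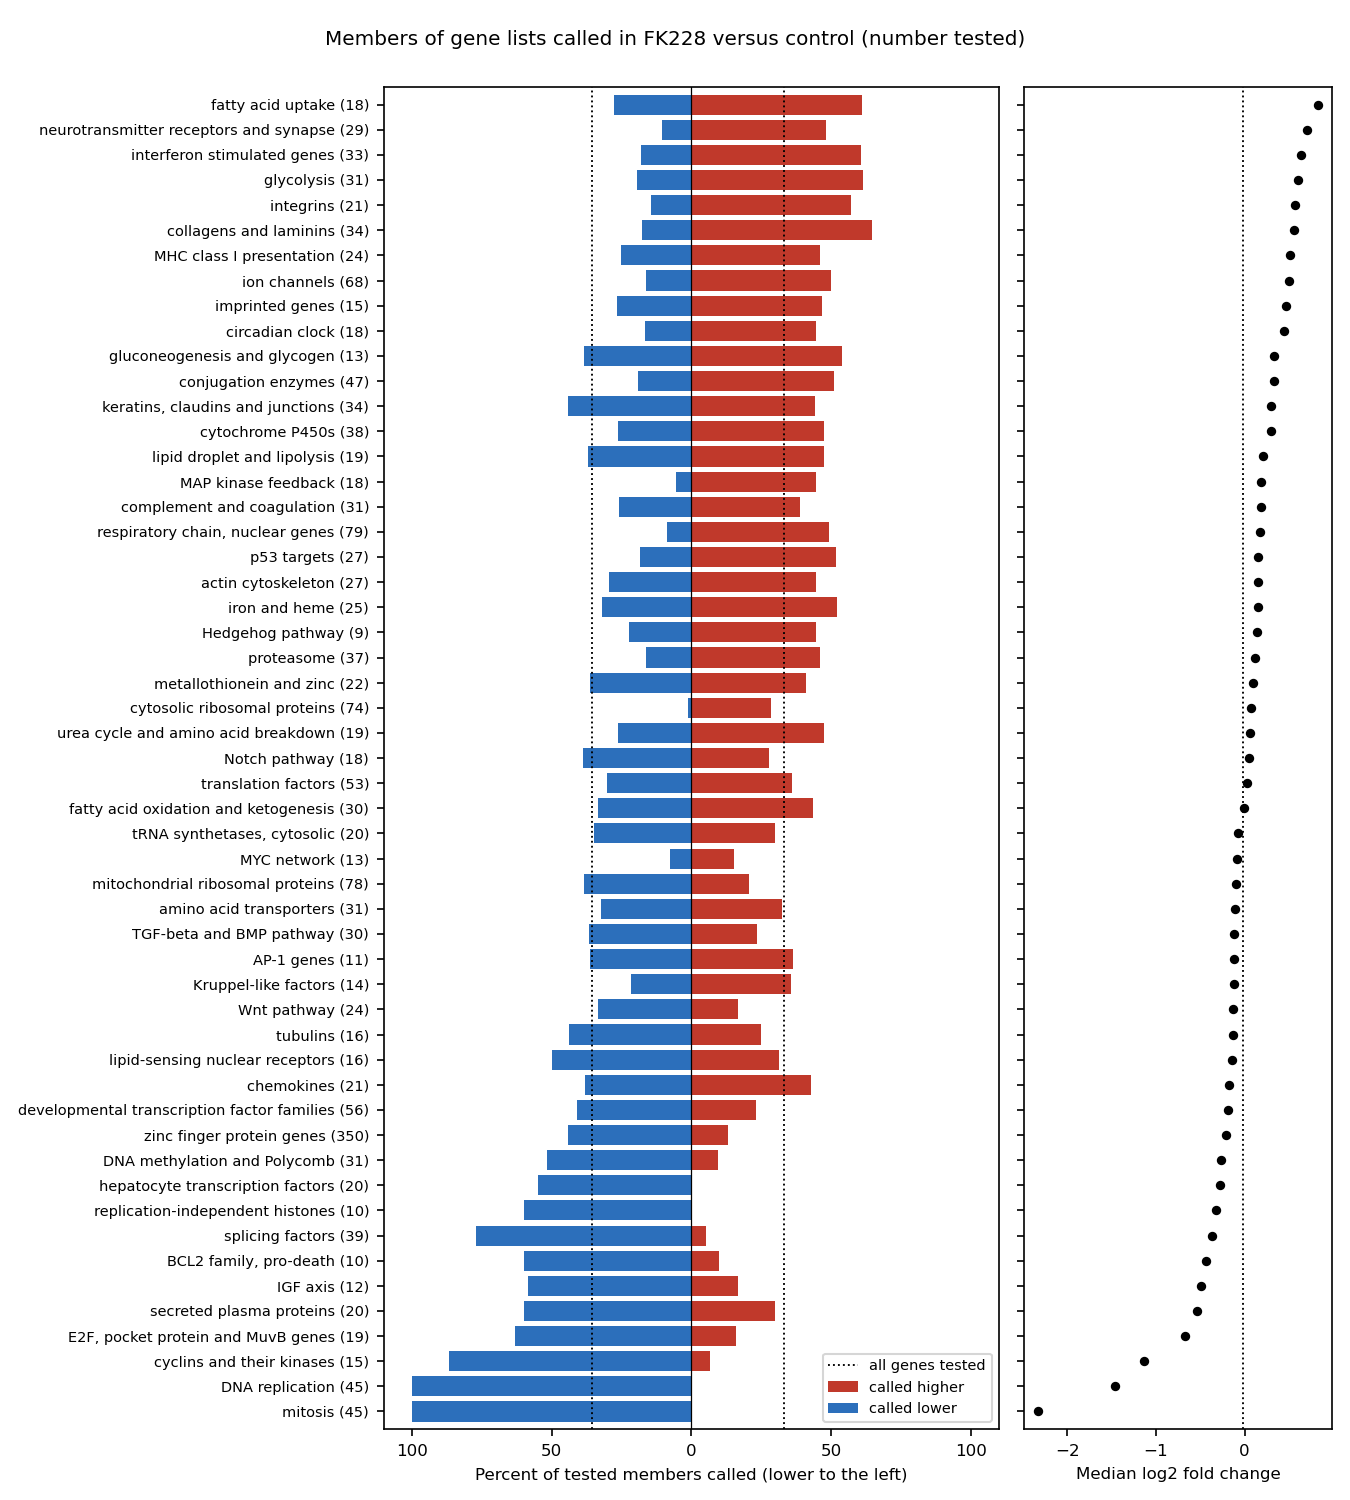
Percent of tested members of each gene list called lower (blue, to the left) and higher (red, to the right) with FK228, with the number tested in brackets and dotted lines at the 35.5% and 33.2% of all genes, and on the right the median log2 fold change with a dotted line at -0.02. Mitosis and DNA replication reach 100% lower, and lists at the top have more members higher than lower.

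BCL2 family proteins either protect mitochondria or permeabilise them. Of 4 tested pro-survival genes, Bcl2l2 was lower (-0.53 ± 0.09), and Bcl2 and Mcl1 did not pass, nor did Bcl2l1 (-0.12), although it did without control replicate 1 (-0.17, adjusted p = 0.0175). Of 10 pro-death genes, 6 were lower and 1 higher. Bmf, a BH3-only protein linked to the cytoskeleton, stood at 198, 246 and 211 CPM in the control libraries and 87.3, 101 and 104 CPM with FK228 (-1.16 ± 0.09, adjusted p = 2.46e-09). Bid, Bak1 and Bcl2l11, which encodes BIM, fell by -0.59, -0.52 and -0.59 on the log2 scale. Pmaip1, which encodes NOXA, rose from 42.7 to 50.4 CPM, and Bax did not pass (328 and 318 CPM, adjusted p = 0.628). Among 27 p53 target genes 14 were higher and 5 lower (median 0.15), and only Plk2, a kinase of the centrosome cycle, was called at least 2-fold higher, at 103, 80 and 82.8 CPM in the control libraries and 327, 336 and 328 CPM with FK228.

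The counts of the signalling lists stand against 33.2% of all genes higher and 35.5% lower. In the Hedgehog pathway, where the receptor PTCH1 holds back SMO and GLI factors carry the signal, 4 of 9 tested genes were higher and 2 lower. Gli1, a GLI factor that is itself a target gene, stood at 0.232, 0.231 and 0.0778 CPM in the control libraries and 14, 12.9 and 13.4 CPM with FK228 (6.17 ± 0.24, adjusted p = 4.58e-15). Smo went the other way and stood at 112, 125 and 124 CPM in the control libraries and 48.6, 46.9 and 46.3 CPM with FK228 (-1.35 ± 0.06). Ptch1, another target gene, did not pass (29.5 and 29.5 CPM, adjusted p = 0.988). Without control replicate 1 the count of higher genes in this list was 2 in place of 4.

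In the Notch pathway 5 of 18 genes were higher and 7 lower. The receptor gene Notch1 stood at 14.9, 14.7 and 14.4 CPM in the control libraries and 38.8, 38 and 42.5 CPM with FK228 (1.44 ± 0.09), while Lfng, an enzyme that puts sugars on Notch receptors, stood at 22.5, 21.9 and 25.6 CPM in the control libraries and 4.9, 3.32 and 2.85 CPM with FK228 (-2.66 ± 0.16). Neither gene's groups overlapped, which is favoured by naming the members with the largest change. Of 24 Wnt pathway genes, 4 were higher and 8 lower. The feedback gene Axin2 rose from 8.65 to 19.2 CPM and the ligand gene Wnt10a fell from 430.3 to 176 CPM.

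Of 30 TGF-beta and BMP pathway genes, 7 were higher and 11 lower (median -0.11). Ccn2, a matricellular protein and a classical target, rose and stood at 124, 93.9 and 101 CPM in the control libraries and 671, 630.0 and 617 CPM with FK228 (2.59 ± 0.11, adjusted p = 5.00e-12). The receptor gene Tgfbr1 and the SMAD corepressor Skil fell by -0.76 and -0.74 on the log2 scale. In the IGF axis 7 of 12 genes were lower and 2 higher. Besides Igfbp4, the receptor genes Igf1r and Insr and the adaptor gene Irs1 fell, from 62.5 to 40.7 CPM, from 30.6 to 23.4 CPM and from 15 to 9.88 CPM. Another adaptor, Irs2, rose from 51.6 to 65.9 CPM.

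Of 18 feedback inhibitors of MAP kinase signalling, 8 were higher and 1 lower. Spry1, which blocks signalling below receptor tyrosine kinases, stood at 15.5, 13.4 and 13.5 CPM in the control libraries and 27.4, 28.4 and 30.4 CPM with FK228 (1.02 ± 0.08), and the phosphatase gene Dusp14 rose from 34.9 to 55.8 CPM. Dusp6, often used as a readout of ERK activity, did not pass (59.6 and 55.8 CPM, adjusted p = 0.197). Of 11 AP-1 genes 4 were higher and 4 lower, shares near the 33.2% and 35.5% of all genes. Fos rose from a low level, from 1.08 to 3.62 CPM, as did Fosb, from 0.193 to 0.951 CPM, while Jun stood at 57.8, 62.1 and 59.4 CPM in the control libraries and 32.4, 32.9 and 32.1 CPM with FK228 and fell (-0.88 ± 0.07). Atf3, a stress-induced factor, fell from 25.5 to 15.2 CPM. In the MYC network 10 of 13 genes did not pass. Mxd3, a MAX partner of S phase cells, fell from 9 to 3.19 CPM (-1.50 ± 0.13), and Mxi1, an antagonist of MYC, rose from 60.4 to 76.2 CPM. Of 14 Kruppel-like factor genes, 5 were higher and 3 lower, with Klf5 going from 8.66 to 14.3 CPM and Klf13 from 50.9 to 28.4 CPM.

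Most genes of the interferon response list rose. Interferons switch on antiviral genes through STAT and IRF factors that bind the interferon-stimulated response element in their promoters. Of 33 tested genes 20 were higher and 6 lower, and 14 rose at least 2-fold (median 0.63). The promoters of 3 genes that rose strongly are shown, with the core of that element on either strand in capitals (RefSeq, GRCm38.p6).
Rsad2: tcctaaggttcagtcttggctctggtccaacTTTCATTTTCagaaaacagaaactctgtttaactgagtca
Ifit1: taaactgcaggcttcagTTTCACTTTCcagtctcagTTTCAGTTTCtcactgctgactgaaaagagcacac
Oas1a: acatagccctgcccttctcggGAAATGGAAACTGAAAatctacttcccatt

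The stretches are chr12:26456533-26456603 on the minus strand, chr19:34640768-34640838 on the plus strand and chr5:120907516-120907566 on the minus strand. Oas1a holds 2 overlapping copies. The core was in 14 of 26 promoters of the list, 53.8%, against 3.0% of all promoters, 4.56% of those of genes at least 4-fold higher and 5.41% of those at least 4-fold lower. Rsad2, which encodes the antiviral enzyme viperin, stood at 0.155, 0.347 and 0.117 CPM in the control libraries and 16.4, 16.3 and 17.5 CPM with FK228 (6.31 ± 0.20, adjusted p = 2.84e-16). Ifit1, which binds foreign RNA ends, stood at 3.25, 5.2 and 3.46 CPM in the control libraries and 32.2, 40.5 and 43.8 CPM with FK228 (3.29 ± 0.16), and Oas1a, a sensor of double-stranded RNA with several similar copies, at 0.155, 0.231 and 0.233 CPM in the control libraries and 15.5, 15.8 and 16 CPM with FK228 (6.22 ± 0.22). Control and FK228 libraries were far apart for all 3. The chemokine gene Cxcl10, an interferon target, stood at 8.21, 9.79 and 5.72 CPM in the control libraries and 30.9, 32.8 and 29.3 CPM with FK228 (1.97 ± 0.13). Eif2ak2, the kinase PKR, did not pass (57.4 and 63.3 CPM, adjusted p = 0.125), except without FK228 replicate 1 (0.21, adjusted p = 0.0383) or control replicate 1 (0.20, adjusted p = 0.0384).

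MHC class I presentation, which interferon also raises, went both ways: of 24 genes 11 were higher and 6 lower. Psmb10, an immunoproteasome subunit, stood at 42.5, 50.3 and 46 CPM in the control libraries and 5.18, 5.58 and 5.58 CPM with FK228 (-3.08 ± 0.10, adjusted p = 2.29e-16). Erap1, which trims peptides for presentation, stood at 49.3, 51.4 and 44.1 CPM in the control libraries and 10.9, 15.7 and 13.9 CPM with FK228 (-1.84 ± 0.10), and Cd1d1, which presents lipids, at 24.8, 25.3 and 20.3 CPM in the control libraries and 4.41, 5.14 and 4.3 CPM with FK228 (-2.34 ± 0.12). All 3 were lower in every FK228 library, which naming the members with the largest change favours. Tapbpl, a peptide editor, fell from 20.2 to 7.41 CPM, and B2m, the light chain of class I molecules, did not pass (1277 and 1286 CPM, adjusted p = 0.897). Of 21 chemokine genes, 9 were higher and 8 lower. Ccl9 stood at 117, 103 and 105 CPM in the control libraries and 9.75, 9.31 and 7.48 CPM with FK228 (-3.61 ± 0.09), and Cxcl17 and Cxcl16 fell from 28.4 to 1.85 CPM and from 8.71 to 2.49 CPM.

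Transcription factors that keep hepatocyte identity fell or did not pass. Of 20 tested genes 11 were lower and 0 higher (median -0.28), although RLE scaling gave 2 higher and DESeq2 gave 1 higher. Hnf4a, a nuclear receptor at the head of the network, stood at 175, 186 and 172 CPM in the control libraries and 47.5, 50.4 and 54.1 CPM with FK228 (-1.81 ± 0.06, adjusted p = 1.04e-15). Foxa2, a pioneer factor, and Nr1h4, the bile acid receptor, fell from 73.1 to 43 CPM and from 56.4 to 34 CPM.

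Of 20 tested genes of plasma proteins 12 were lower and 6 higher (median -0.54). Apoc2, the activator of lipoprotein lipase, stood at 41, 51.8 and 48.1 CPM in the control libraries and 10.5, 9.18 and 8.43 CPM with FK228 (-2.32 ± 0.19). Serpina1b, an antitrypsin gene with close copies, fell from 37.4 to 2.78 CPM. Among the genes named by the rule, Saa3, a serum amyloid A gene, rose and stood at 229, 252 and 293 CPM in the control libraries and 760.2, 828 and 676 CPM with FK228 (1.55 ± 0.09), and Orm1, an orosomucoid gene, at 24.8, 24.4 and 25.9 CPM in the control libraries and 58.1, 61.5 and 57.3 CPM with FK228 (1.24 ± 0.07). Among 31 complement and coagulation genes 12 were higher and 8 lower, against 33.2% and 35.5% of all genes. The protease genes Masp1 and Proc and the complement inhibitor gene Cfi fell from 77.8 to 16.9 CPM, from 66.7 to 15.5 CPM and from 40.7 to 9.46 CPM, while C1s1, a subunit of the first complement component, stood at 0.542, 0.694 and 0.817 CPM in the control libraries and 7.18, 9.47 and 11.7 CPM with FK228 (3.78 ± 0.22). C3, the central complement protein, did not pass (1169.7 and 1177 CPM, adjusted p = 0.967).

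Genes that handle foreign compounds leaned higher. Of 38 cytochrome P450 genes 18 were higher and 10 lower, and of 47 conjugation enzymes 24 were higher and 9 lower (medians 0.29 and 0.33). Cyp3a13, an oxidase of drugs, stood at 25.7, 28.4 and 24.3 CPM in the control libraries and 73.2, 78.3 and 74.8 CPM with FK228 (1.53 ± 0.07), while Cyp2c68 fell from 40.5 to 2.14 CPM. The glutathione transferase genes Gsta2 and Gsto2 rose from 1.77 to 18.8 CPM and from 1.46 to 11 CPM, and Ugt1a1, which conjugates bilirubin, from 1.93 to 8.42 CPM. Close copies in these families can share reads. Many members of both lists had low levels, where the filter leans higher. The summed level of the P450 list was 355 to 436 CPM in control and 393 to 416 CPM with FK228. That of the conjugation enzymes was 3238 to 3688 CPM in control and 5708 to 6177 CPM with FK228.

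Metabolic genes changed in several groups. Of 31 glycolysis genes 19 were higher and 6 lower (median 0.60), and their summed level rose from 17383 to 21782 CPM in control to 26829 to 27166 CPM with FK228. Pfkp, a phosphofructokinase isoform, stood at 6.51, 10.1 and 10.1 CPM in the control libraries and 29.6, 31.2 and 31.3 CPM with FK228 (1.78 ± 0.12, adjusted p = 4.19e-11), and Hk1, a hexokinase, at 81.3, 90.9 and 91.8 CPM in the control libraries and 171, 187 and 196 CPM with FK228 (1.07 ± 0.08). Eno2, an enolase typical of neurons, rose from 7.3 to 19.6 CPM, while the main enolase Eno1 did not pass (1569 and 1604 CPM, adjusted p = 0.732). In TPM, Aldoa made up 12.5 ± 0.893% of the list in control and 19.3 ± 0.830% with FK228, and Gapdh 49.9 ± 1.65% and 43.8 ± 1.36%. In gluconeogenesis and glycogen metabolism 7 of 13 genes were higher and 5 lower. Pcx, which makes oxaloacetate from pyruvate, rose from 12.8 to 28.5 CPM, and Slc37a4, the transporter of glucose 6-phosphate, fell from 33.3 to 12 CPM. Without control replicate 3 the lower genes numbered 3 in place of 5.

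Of 18 fatty acid uptake genes 11 were higher and 5 lower (median 0.83). Yet the summed level of the list was 847 to 866 CPM in control and 786 to 888 CPM with FK228. Cd36, a fatty acid transporter, stood at 0.116, 0.0385 and 0 CPM in the control libraries and 13.4, 14.8 and 15.2 CPM with FK228 (adjusted p = 5.76e-16). Lrp1, a lipoprotein receptor, rose from 13.6 to 48 CPM, and Acsl5, which activates fatty acids, stood at 309, 282 and 298 CPM in the control libraries and 63.5, 63.4 and 65.9 CPM with FK228 (-2.20 ± 0.07). Fatty acid oxidation genes went both ways, 13 of 30 higher and 10 lower, all but 2 of these by less than 2-fold. Cpt1a, which admits fatty acids to mitochondria, did not pass (246 and 267 CPM, adjusted p = 0.225). It did without FK228 replicate 1 (0.21, adjusted p = 0.0417) and without control replicate 2 (0.24, adjusted p = 0.00835). Of 19 lipid droplet genes 9 were higher and 7 lower, and G0s2, an inhibitor of the lipase ATGL, stood at 38, 32.4 and 38.8 CPM in the control libraries and 10.2, 7.69 and 7.19 CPM with FK228 (-2.12 ± 0.11). Of 16 lipid-sensing nuclear receptor genes 5 were higher and 8 lower, with Nr1h3, the liver X receptor alpha, falling from 38.1 to 19.5 CPM.

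Of 25 iron and heme genes 13 were higher and 8 lower. Hmox1, which breaks down heme, stood at 83.4, 86.3 and 97.6 CPM in the control libraries and 539, 449 and 493 CPM with FK228 (2.47 ± 0.08), and Blvrb and Uros, enzymes of heme breakdown and heme synthesis, rose from 23.9 to 111 CPM and from 15.7 to 48.5 CPM. The iron sensor gene Tfr2 fell from 29.5 to 12.2 CPM. The metallothionein genes Mt1 and Mt2, whose products bind zinc, stood at 291, 347 and 391 CPM in the control libraries and 827, 683 and 598 CPM with FK228 (1.03 ± 0.13) and at 103, 113 and 141 CPM in the control libraries and 511, 428 and 348 CPM with FK228 (1.85 ± 0.14). FK228 replicate 1 was the highest and replicate 3 the lowest FK228 library for both. The zinc importer genes Slc39a1 and Slc39a10 fell from 136 to 72.3 CPM and from 56.6 to 31.2 CPM.

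Of 19 urea cycle and amino acid breakdown genes 9 were higher and 5 lower. Ass1, which makes argininosuccinate, stood at 11.3, 13.6 and 10.6 CPM in the control libraries and 33.3, 41.3 and 42 CPM with FK228 (1.72 ± 0.11), and Glud1 and Got1, which move amino nitrogen, rose from 201 to 434 CPM and from 58.9 to 151 CPM. Of 31 amino acid transporter genes 10 were higher and 10 lower, near the 33.2% and 35.5% of all genes. The neutral amino acid transporter gene Slc43a2 fell from 44.3 to 14.3 CPM and the glutamine transporter gene Slc38a3 rose from 8.84 to 21.2 CPM. Of 18 clock genes 8 were higher and 3 lower (median 0.45). The activator gene Arntl, which encodes BMAL1, and 2 genes it drives, Nr1d1 and Per1, all rose, from 13 to 27.2 CPM, from 14.9 to 32.2 CPM and from 9.84 to 20.5 CPM.

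Cytoskeletal genes changed in composition. Microtubules are built of alpha and beta tubulin, each made from several genes. Of 16 tested tubulin genes 7 were lower and 4 higher. Tuba1b, the most abundant in TPM in control, stood at 990.5, 904 and 1023 CPM in the control libraries and 466, 437 and 411 CPM with FK228 (-1.15 ± 0.07, adjusted p = 4.38e-12). Tubb6 stood at 135, 107 and 140.2 CPM in the control libraries and 48.7, 45.4 and 47.2 CPM with FK228 (-1.44 ± 0.09), and Tubb2b went the other way at 84.3, 83 and 83.5 CPM in the control libraries and 165, 138 and 152 CPM with FK228 (0.86 ± 0.06). Tuba1a did not pass (289 and 301 CPM, adjusted p = 0.403). As shares of all tubulin TPM, Tuba1b made up 31.6 ± 0.477% in control and 20.9 ± 0.579% with FK228, Tuba1a 9.24 ± 0.410% and 14.1 ± 0.136%, Tubb2b 2.16 ± 0.102% and 5.73 ± 0.372%, and Tubb6 3.66 ± 0.346% and 1.99 ± 0.0577%. Tubulin genes share long stretches of sequence, so reads can be split between them.

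**Figure D4:**
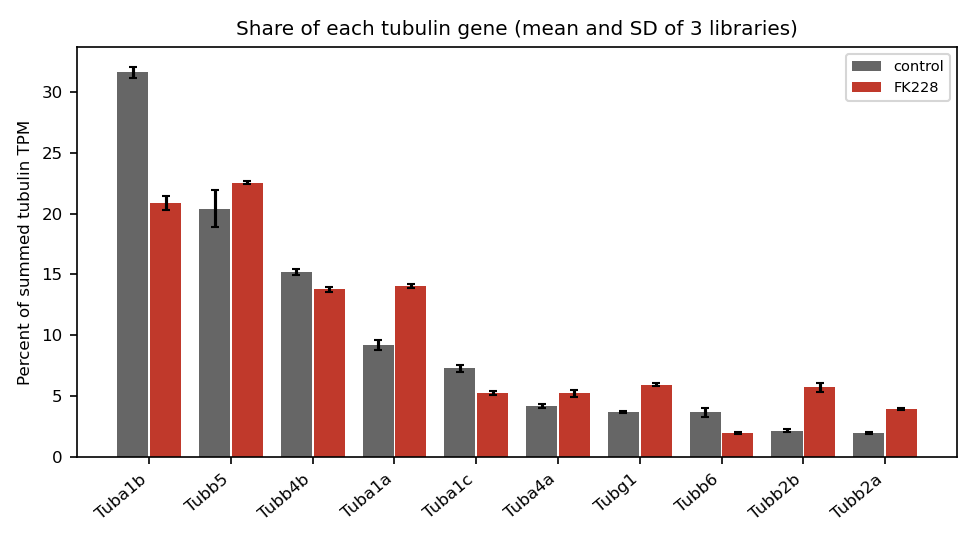
Share of summed tubulin TPM (percent, bars from 0) of the 10 most abundant tubulin genes in control (grey) and with FK228 (red), as the mean of 3 libraries with the SD. Tuba1b goes from 31.6% to 20.9%, and Tuba1a and Tubb2b take larger shares with FK228.

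Of 27 actin cytoskeleton genes 12 were higher and 8 lower, against 33.2% and 35.5% of all genes. Gsn, which cuts actin filaments, stood at 92.7, 121 and 96.5 CPM in the control libraries and 288, 276 and 291 CPM with FK228 (1.46 ± 0.08), and the profilin gene Pfn2 rose from 11.4 to 33.5 CPM. Cfl1, the main cofilin, did not pass (2414 and 2258 CPM, adjusted p = 0.214). Genes of the extracellular matrix leaned higher, with 22 of 34 tested collagens and laminins higher and 6 lower (median 0.55). The list has 56 genes with a row, and at low levels the filter leans higher, so it may set part of this lean. Fn1, fibronectin, stood at 386, 416 and 431 CPM in the control libraries and 925, 991 and 1083 CPM with FK228 (1.28 ± 0.08), and Col11a2, a fibrillar collagen of cartilage, rose from 5.36 to 31.9 CPM. Col15a1, a basement membrane collagen, fell from 60.1 to 20 CPM. Of 21 integrin genes, which encode matrix receptors, 12 were higher and 3 lower, with Itgav rising from 43.3 to 87.7 CPM and Itgb6 falling from 30.3 to 19.7 CPM.

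Epithelial genes split evenly, with 15 of 34 keratins, claudins and junction genes higher and 15 lower. Krt19, a keratin of bile ducts, stood at 511, 649 and 659 CPM in the control libraries and 179, 175 and 165 CPM with FK228 (-1.81 ± 0.09), and Krt20, an intestinal keratin, at 112, 115 and 105 CPM in the control libraries and 197, 202 and 192 CPM with FK228 (0.83 ± 0.06). The desmosome gene Dsg2 and the claudin gene Cldn2 fell from 333 to 143 CPM and from 428 to 214 CPM.

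Of 7 class II and IV HDAC genes 2 were higher and 3 lower, again near the 33.2% and 35.5% of all genes. Hdac11, the class IV member, stood at 29.1, 34.9 and 32 CPM in the control libraries and 58.6, 57 and 59.6 CPM with FK228 (0.87 ± 0.08), Hdac10 at 15.6, 14.3 and 17 CPM in the control libraries and 7.59, 8.66 and 6.2 CPM with FK228 (-1.06 ± 0.11) and Hdac7 at 123, 113 and 117 CPM in the control libraries and 85.1, 80.6 and 82.6 CPM with FK228 (-0.50 ± 0.07). Of 7 sirtuin genes, NAD-dependent deacylases, 4 were higher and 1 lower. Sirt2 rose from 155 to 262 CPM and Sirt1 fell from 10.7 to 4.32 CPM. DNA methylation and Polycomb genes were lower in 16 of 31 and higher in 3 (median -0.26). Uhrf1 and Dnmt1, which keep up DNA methylation after replication, fell from 52.6 to 14.9 CPM and from 127 to 69.5 CPM, and Bmi1, a Polycomb subunit, stood at 75.2, 72.4 and 64.6 CPM in the control libraries and 23.5, 24.2 and 24.8 CPM with FK228 (-1.55 ± 0.07).

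Of 10 tested genes listed as histones made independently of DNA replication, 6 were lower and 0 higher. Whether the levels of these genes follow the cell cycle was not tested. Cenpa, the centromeric histone H3, fell from 79.6 to 13.1 CPM, H2ax from 71.7 to 28.2 CPM and H2az1 from 376 to 208 CPM. H1f0, a linker histone known to rise in cells that stop dividing, stood at 575, 541 and 581 CPM in the control libraries and 394, 411 and 400.3 CPM with FK228 (-0.49 ± 0.06, adjusted p = 1.83e-07). Every FK228 library was below every control library, which naming the members with the largest change favours. H3f3a did not pass (1207 and 1257 CPM, adjusted p = 0.412). Zinc finger genes named Zfp were lower in 155 of 350 and higher in 46 (median -0.20). Many such genes encode KRAB repressors of transposons, but the list goes by name and was not split by KRAB domain. Zfp618 and Zfp362, named for their large change and not for a KRAB domain, fell from 30.1 to 6.97 CPM and from 20 to 4.94 CPM. Of 56 genes of developmental transcription factor families 23 were lower and 13 higher, against 35.5% and 33.2% of all genes. Foxj1, the regulator of motile cilia, stood at 71.5, 73.9 and 74.7 CPM in the control libraries and 9.14, 8.74 and 7.94 CPM with FK228 (-3.09 ± 0.08, adjusted p = 4.66e-17).

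Of 39 splicing factor genes 30 fell and 2 were higher (median -0.37), but only 2 of the 30 fell by at least 2-fold. Srsf3 stood at 257, 222 and 237 CPM in the control libraries and 118, 119 and 109.8 CPM with FK228 (-1.05 ± 0.07), and Srsf7, Srsf6 and Hnrnph1 fell by -1.08, -0.97 and -0.94 on the log2 scale. Several SR protein mRNAs are known to regulate their own splicing, and isoforms were not analysed here. Of 53 translation factors 19 were higher and 16 lower, near the shares of all genes (33.2% and 35.5%), and the most abundant that did not pass was Eef1a1, at 13250.0 and 13075 CPM (adjusted p = 0.816). Eif3k rose from 275 to 451 CPM and Eif4g2, which aids initiation without a cap, fell from 896 to 554 CPM. Among 20 cytosolic tRNA synthetases 6 were higher and 7 lower, again near those shares, with Vars falling from 128 to 64.4 CPM. Of 37 proteasome genes 17 were higher and 6 lower.

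The counts of called ribosomal protein and respiratory chain genes varied with single libraries. Of 74 cytosolic ribosomal protein genes 21 were higher, 1 lower and 52 not called (median 0.07). Their summed level was 116290, 117490 and 125430 CPM in control and 143490, 128040 and 112970 CPM with FK228, so the FK228 libraries lay both above and below control. Without FK228 replicate 1 the lower genes numbered 9 in place of 1, and without FK228 replicate 3 the higher genes numbered 35 in place of 21. Of 79 nuclear genes of the respiratory chain 39 were higher and 7 lower, none by 2-fold, and 17 were lower without FK228 replicate 1 and 4 without FK228 replicate 2. The summed level of this list was 22873, 22552 and 23771 CPM in control and 29509, 26845 and 24103 CPM with FK228. Here every FK228 library lay above every control library. In YF cells 47 of these genes were higher with FK228 and 7 lower. Uqcrh, a complex III subunit, stood at 170.5, 168 and 162 CPM in the control libraries and 341, 314 and 291 CPM with FK228 (0.92 ± 0.07). Of 78 mitochondrial ribosomal protein genes 16 were higher and 30 lower.

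Of 158 ion channel genes with a row 68 were tested, with 34 higher and 11 lower, and 26 rose at least 2-fold. Yet the summed level of the list was 810 to 876 CPM in control and 815 to 876 CPM with FK228. Cacna1g, a T-type calcium channel, stood at 13.8, 19 and 16.4 CPM in the control libraries and 45.6, 45.4 and 52.9 CPM with FK228 (1.55 ± 0.11), and Kcnk5, a potassium channel gene, fell from 45.4 to 21 CPM. Of 85 neurotransmitter receptor and synapse genes 29 were tested, with 14 higher and 3 lower, or 5 lower without control replicate 1. In both lists genes near 0 in control were tested only where another group had counts. Part of the upward lean of these lists is thus set by the filter. Gabra3, a GABA receptor subunit, stood at 4.03, 4.85 and 4.82 CPM in the control libraries and 23.9, 23.2 and 23.8 CPM with FK228 (2.37 ± 0.10). Of 28 germline genes with a row, 3 were tested. Brdt, a testis bromodomain gene, was among them and rose from 2.7 to 7.63 CPM. Of 15 imprinted genes 7 were higher and 4 lower (2 lower without FK228 replicate 2), with Slc22a18 rising from 3.3 to 7.91 CPM and Sgce falling from 64.1 to 42.9 CPM.

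Some markers of other cell types changed, mostly at low levels. Cd68, a lysosomal protein of macrophages, rose and stood at 2.79, 2.08 and 2.72 CPM in the control libraries and 25, 18.8 and 24.5 CPM with FK228 (3.17 ± 0.14). Cd14, the endotoxin coreceptor, fell and stood at 131, 177 and 154 CPM in the control libraries and 21.7, 22.8 and 19.1 CPM with FK228 (-2.86 ± 0.13). Ptprc, the pan-leukocyte marker CD45, did not pass (1.15 and 1.51 CPM, adjusted p = 0.361), and the Kupffer cell marker Clec4f had 0 counts in all 6 libraries. The macrophage genes Lyz2, Itgam and Csf1r rose from 0.323 to 1.97, from 0.438 to 1.96 and from 0.361 to 1.09 CPM. The call of Csf1r ended without FK228 replicate 1 (1.15, adjusted p = 0.053). These genes, and Vwf, Eng and Col1a1 below, were chosen after their values were seen. Of 12 leukocyte markers 6 were tested, with 4 higher and 1 lower, and their summed level, which Cd14 made most of in control, was 136 to 182 CPM in control and 48.6 to 53.4 CPM with FK228. Egfl7, an endothelial secreted protein, stood at 2.32, 3.04 and 2.84 CPM in the control libraries and 27.2, 27 and 26.7 CPM with FK228 (3.30 ± 0.11), while Cdh5 stood at 0.0130 and 0.0962 CPM and Kdr and Tek had still fewer counts with FK228. The endothelial gene Vwf rose from 0.193 to 0.707 CPM, and Eng fell from 4.00 to 1.84 CPM. Of 10 endothelial markers 3 were tested, and the summed levels were 6.08 to 7.90 and 29.6 to 30.4 CPM. Des, desmin, a stellate cell filament, rose from 7.43 to 26.4 CPM and the collagen gene Col1a1 from 1.33 to 5.42 CPM, while Lrat had 0.0128 CPM in control and 0 with FK228. Of 12 stellate and fibroblast markers 4 were tested and 2 were higher, with a summed level of 7.86 to 10.6 CPM in control and 31.8 to 33.1 CPM with FK228.

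Hba-a1, an alpha globin gene, stood at 0.0775, 0.0771 and 0 CPM in the control libraries and 40.9, 33.1 and 28.8 CPM with FK228. Hba-a2, a near-identical copy, reached 0.257 CPM, and reads of the 2 copies cannot be told apart. The beta globin gene Hbb-bt had 0 counts in all 6 libraries, and Gata1, the erythroid regulator, had 0 in control and 0.0271 CPM with FK228. Of 10 erythroid markers 3 were tested and 2 were higher, with a summed level of 1.24 to 1.85 CPM in control and 30.1 to 43.0 CPM with FK228. Of 8 bile duct markers 4 were lower and 1 higher. Their summed level was 5109 to 5171 CPM in control and 5672 to 6072 CPM with FK228, mostly the osteopontin gene Spp1, which rose from 4179.6 to 5349.5 CPM (0.36 ± 0.07). The part of other cell types in these results was not tested.

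The same inhibitor was compared within YF cells, from libraries outside the contrast above that share its filter, scaling and fitted dispersions. In YF cells FK228 called 9426 genes (70.6%), 4635 (34.7%) higher and 4791 (35.9%) lower, from 3 libraries with both treatments against 3 with YF alone. Of the 4437 genes higher without YF, 3449 (77.7%) were also called higher in YF cells, 123 were called lower and 865 were not called. Of the 4744 lower, 3832 (80.8%) were also called lower, 143 higher and 769 not called. Of 681 genes at least 4-fold higher, 595 were called higher, and their median log2 fold change was 3.19 without YF and 1.83 in YF cells. Of 287 genes at least 4-fold lower, 271 were called lower, with medians of -2.42 and -2.60. The first median of each pair was set by the choice of genes, and the differences between cells without and with YF were not tested.

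All 45 mitosis genes were lower in YF cells too (median -2.68), and of the 45 replication genes 43 were lower and 1 higher. Of the 33 interferon genes 19 were higher and 6 lower, and of the 20 hepatocyte transcription factors 12 were lower and 0 higher. Of the 21 integrins 5 were higher and 4 lower in YF cells, and of the 34 collagens and laminins 14 were higher and 11 lower. Fn1 had a log2 fold change of 1.28 without YF and 0.05 with it, Lcn2 0.84 and 0.03, and Spry1 1.02 and 0.11. Gli1 (6.17 and 1.54) and Clu (1.90 and 1.88) rose in both. The single genes named for this comparison were picked by no stated rule, and the differences between the effects were not tested.

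**Figure D5:**
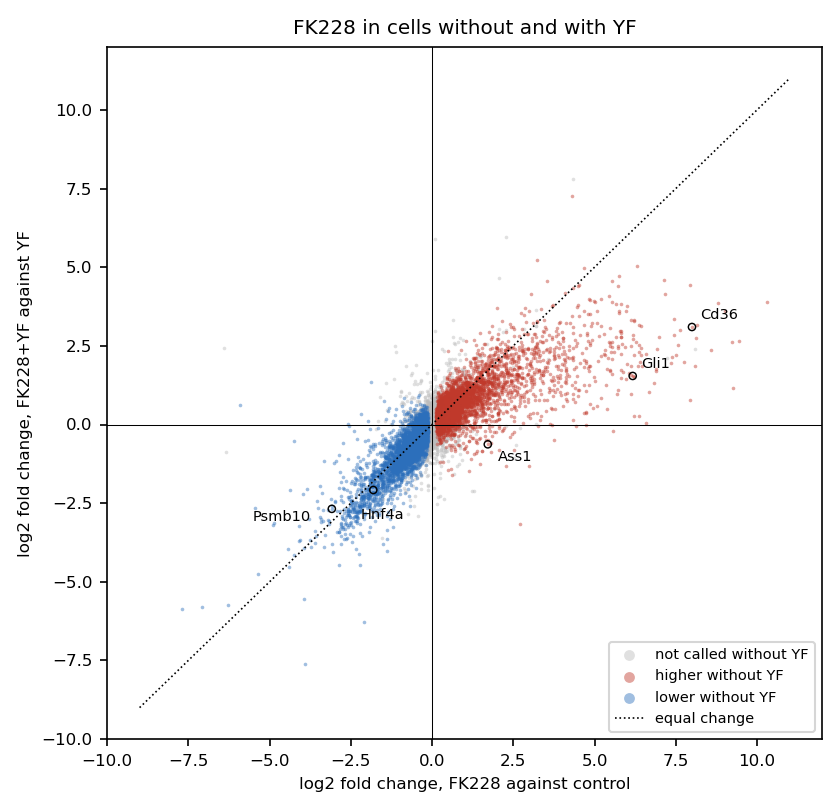
Log2 fold change with FK228 for each tested gene in cells without YF (horizontal axis) and in YF cells (vertical axis), from libraries that the 2 contrasts do not share, coloured by the call without YF, with a dotted line of equal change. Genes called lower (blue) lie along the line, and genes called at least 4-fold higher lie mostly below it, with medians of 3.19 and 1.83.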

How the data were processed

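TRIzol was used to extract the RNA of 12 libraries, which a BGISEQ instrument read as paired ends, per the labels. The authors deposited expected counts per gene, which are not scaled to library size and of which 16.6% are not whole, and TPM, which they scaled to length and library before deposit, per the file headers. RSEM 1.2.12, Bowtie2 2.2.5, HISAT2 2.0.4, DESeq2 1.4.5 and GRCm38.p6 appear in the submitters' processing notes. The sources used here give neither their roles nor the annotation or the use of strand. A further 24 columns of values per sample (deposited FPKM and normalized counts) were not used. TPM served only to compare levels between genes.

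Expected counts were rounded. Genes were filtered with filterByExpr, scaled by TMM and fitted with edgeR 4.0.16's quasi-likelihood model (robust, R 4.3.3) to all 12 libraries, 1 term per group. The contrast was FK228 minus control, with calls at a Benjamini-Hochberg adjusted p of 0.05. Errors of log2 fold changes are the SE of the fit, and CPM and TPM are given with the SD of 3 libraries. Genes were named by rule: the 12 largest gains and losses in CPM with groups that do not overlap, and up to 10 genes near 0 in 1 group. Each list gave up to 4 called members with the largest change among those with a mean of at least 5 CPM. Where no called member reached 5 CPM, 1 CPM was used, so larger changes of rarer members can go unnamed. Each list also gave its most abundant member not called. All members of 10 short lists were added, with the BCL2 lists counted as 1. The rule gave 388 genes, of which the text uses part, and some are not reported here. The members and the 64 gene lists were chosen with earlier results of these data known. The scripts were tested on simulated data. Of the table's genes, 18980 matched RefSeq by gene ID. Promoters are RefSeq windows of GRCm38.p6, 1 per gene, with chromosome 18 left out. Alternatives were RLE scaling, no count filter, 5 CPM in 3 libraries, DESeq2 1.42.0, limma-voom (limma 3.58.1), the 6 libraries alone, the replicate block and each library left out in turn.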

Additional observations from a re-analysis of the deposited data

Results flagged for a closer look

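Among the genes named above, 3 were called in opposite directions with FK228 in cells without YF and in YF cells, with every FK228 library on its side of the mean of the libraries without FK228. The difference between the 2 effects was not tested. Ass1, the argininosuccinate synthetase gene, had a log2 fold change of 1.72 without YF and -0.63 in YF cells. Orm1, an acute phase gene, had 1.24 and -0.42. Atf3, a stress-induced transcription factor gene, had -0.74 and 0.41.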

How the results depend on the processing

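The counts of called genes kept within 1.5 times their values under all alternatives except 1: with genes of 5 CPM in 3 libraries, which tests 10771 genes, 633 were called at least 2-fold higher. Total calls were 9197 with RLE scaling (4708 higher, 4489 lower), 9155 with DESeq2, 9179 with limma-voom, 9343 with no count filter and 8520 with the 6 libraries alone. Leaving out each of the 12 libraries in turn, with the filter applied anew, gave 8674 to 9252 called, 4215 to 4569 higher, 4351 to 4762 lower, 1479 to 1539 at least 2-fold higher, 1013 to 1068 at least 2-fold lower, and totals of 6974 to 7195 called in the same direction in YF cells (7281 with all 12). With DESeq2 for both contrasts, added after seeing the data, this last count was 7088. Whether the replicate numbers pair the libraries is not stated. Same-numbered deviations from the group means correlated at -0.0528, -0.0077 and -0.0223, and others at -0.0609 to 0.0783. With 3 libraries per group these values cannot settle it. With the replicate block 9015 genes were called, 4356 higher and 4659 lower. Among the named genes, 13 results lost and 5 gained a call under some alternative, and the cause was not tested. Those of Hsd3b4 that lost it had adjusted p = 0.0916 with no count filter, 0.134 with DESeq2 and 0.0649 with the block. Depth limits rare genes: below about 1 CPM a library holds few counts.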

Other observations

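The tested genes were also split into 5 equal groups by other properties, after seeing the data. By span of the gene in GRCm38.p6, 34.7% of the group of shortest genes (median 4.37 kb) were called higher and 30.9% lower, and 36.7% and 31.8% of the longest (median 117 kb). The groups between them leaned lower, with 29.4% to 32.8% higher and 37.1% to 39.8% lower. By GC content of the 300-base promoter window, changes of at least 2-fold were more frequent where GC was low. In the group with the lowest GC (median 48.0%) 17.3% of genes were called at least 2-fold higher and 10.9% at least 2-fold lower, and in that with the highest (median 72.7%) 7.93% and 4.74%. Levels of the genes differ between such groups, and this was not adjusted for.

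Other members of the lists also changed. The homeobox genes Hoxb3 and Six5 fell from 16.7 to 6.59 CPM and from 19.4 to 8.43 CPM. Igfals, which carries IGF complexes in plasma, fell from 3.48 to 0.491 CPM, and Igfbp3, its partner, rose from 0.619 to 1.58 CPM. Tube1, an epsilon tubulin of centrioles, fell from 9.15 to 2.55 CPM. The level of Sult1d1, a sulfotransferase, rose from 2.13 to 9.24 CPM.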
